A study of Mus musculus with 8 samples.

Results

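Hi-C maps of mouse ES cells and of newborn mouse lens epithelium were compared through the chromatin loops and topologically associating domains (TADs) listed for each. The ES cell list held 8459 loops and 3604 TADs, and the lens epithelium list held 8005 loops and 1796 TADs. Together these were 16464 of the 24146 loops and 5400 of the 8041 TADs of the series, whose other Hi-C list is from lens fiber cells. The ES cells were the v6.5 line, labelled WT and described in the paper as male. This single line was grown in culture without feeders on gelatin with LIF at 24 ng/mL. The lens epithelium was microdissected at postnatal day 0.5 from mice labelled CD-1, with 30 epithelia pooled in each replicate, and both kinds of replicate were cross-linked in the same way. Cross-linking used 2.0% formaldehyde, and the same Hi-C kit served for both. Cell type, genetic background and growth in culture or in tissue differed together between the groups and cannot be told apart. The paper does not give the sex of the lens donors, so sex may differ with them. Each cell type had 2 replicates, which the authors merged before loops and TADs were called. A single merged list per cell type leaves no replicate error, so the differences below carry no test. The lists hold no expression values, so the labelled cell types were not checked against marker expression. Ranges in brackets are 95% intervals, by Wilson for shares and from order statistics for medians, and cover counting error only.

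A loop is a pair of anchors on 1 chromosome that touch more often than their surroundings do. Many loops form when cohesin extrudes chromatin until it meets CTCF bound in convergent orientation at both anchors, and TADs are stretches of chromatin that contact themselves more than their neighbors. In ES cells, promoters of silent developmental genes that carry Polycomb complexes are also known to contact each other over long distances. A loop was called shared when the other list had a loop whose 2 anchor midpoints were each at most 10 kb away. It was called ES-only or epithelium-only when no loop of the other list lay within 25 kb at both midpoints, and intermediate otherwise. An absent loop is one that was not called. Contacts at that position in the other map were not used here.

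Promoters of genes with many loops of either class are given first, because much of what follows concerns the genes at anchors. Each window runs from 250 bases before to 50 after the start of the gene, on its own strand, from RefSeq on GRCm38.p6, with every CpG dinucleotide in capitals. The first 2 genes were among the 3 with most ES-only loops, and the last 3 had most epithelium-only loops, among genes with a window, ties taken in alphabetical order.
Lmx1b, chr2:33641049-33641348, minus strand: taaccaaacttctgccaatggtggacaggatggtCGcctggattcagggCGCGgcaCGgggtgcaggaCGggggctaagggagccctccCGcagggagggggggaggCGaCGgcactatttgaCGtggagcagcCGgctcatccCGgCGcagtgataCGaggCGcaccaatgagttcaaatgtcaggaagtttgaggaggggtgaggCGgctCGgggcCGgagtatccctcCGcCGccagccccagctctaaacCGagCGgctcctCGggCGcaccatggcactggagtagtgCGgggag
Dlx1, chr2:71529195-71529494, plus strand: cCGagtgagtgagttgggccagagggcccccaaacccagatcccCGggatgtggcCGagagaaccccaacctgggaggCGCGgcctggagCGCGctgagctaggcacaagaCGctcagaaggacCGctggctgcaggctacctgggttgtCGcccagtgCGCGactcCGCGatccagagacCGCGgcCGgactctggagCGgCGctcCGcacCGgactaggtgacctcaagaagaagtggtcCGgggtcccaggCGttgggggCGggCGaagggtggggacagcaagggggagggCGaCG
Dcdc5, chr2:106080749-106081048, plus strand: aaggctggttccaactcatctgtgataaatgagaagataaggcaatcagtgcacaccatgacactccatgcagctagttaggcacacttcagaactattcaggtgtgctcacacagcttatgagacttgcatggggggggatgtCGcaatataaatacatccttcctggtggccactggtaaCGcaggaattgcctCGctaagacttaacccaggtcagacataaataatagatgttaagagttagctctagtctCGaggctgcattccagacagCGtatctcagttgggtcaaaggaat
Flrt2, chr12:95691976-95692275, plus strand: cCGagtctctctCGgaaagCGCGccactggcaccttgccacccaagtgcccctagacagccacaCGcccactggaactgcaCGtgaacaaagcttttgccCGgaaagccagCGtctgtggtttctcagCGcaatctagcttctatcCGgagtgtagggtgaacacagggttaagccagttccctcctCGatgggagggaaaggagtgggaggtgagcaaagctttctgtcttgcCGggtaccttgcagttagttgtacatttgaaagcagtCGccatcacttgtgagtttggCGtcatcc
Irf2bp2, chr8:126593937-126594236, minus strand: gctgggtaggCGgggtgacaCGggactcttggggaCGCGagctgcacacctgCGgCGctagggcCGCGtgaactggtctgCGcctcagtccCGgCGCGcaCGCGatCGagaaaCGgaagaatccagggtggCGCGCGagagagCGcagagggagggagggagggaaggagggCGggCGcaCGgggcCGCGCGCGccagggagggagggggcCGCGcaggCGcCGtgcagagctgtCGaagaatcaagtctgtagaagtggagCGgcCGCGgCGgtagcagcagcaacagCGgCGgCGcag
Lmx1b and Dlx1 encode homeodomain transcription factors of limb and forebrain development, and their windows held 24 and 27 CpGs. The windows of Dcdc5, a doublecortin domain gene, Flrt2, a membrane protein of cell guidance, and Irf2bp2, a transcriptional corepressor, held 5, 14 and 39. Over all genes with a window, the values of the ES-only and epithelium-only genes lay side by side. Of 1482 windows of genes found at ES-only anchors and at neither epithelium-only nor shared anchors, 72.4% held 10 or more CpGs, against 74.0% of 1138 windows of genes with epithelium-only anchors alone. The share was 72.0% for genes at shared anchors, 54.5% for genes at no anchor and 59.5% for all 17492 genes with a window. It was 88.2% of 68 for the Hox, homeobox and related genes described below that lay at an ES-only anchor, and 12 of 20 for those that did not.

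The ES cell list shared 35.9% (34.8 to 36.9) of its loops with lens epithelium, while 53.3% (52.3 to 54.4) were ES-only and 10.8% were intermediate. In the lens epithelium list 51.0% (49.9 to 52.0) of the loops were epithelium-only. These classes held 3033 shared, 915 intermediate and 4511 ES-only loops in ES cells, and 3036 shared, 890 intermediate and 4079 epithelium-only loops in lens epithelium. Anchor width moved with these shares. ES cell loops were shared in 49.6% of those with 5 kb anchors, 31.4% with 10 kb anchors and 20.2% with 25 kb anchors, and lens epithelium loops in 71.6%, 43.5% and 17.7%. The 2 lists differed in their widths. Anchors of 25 kb were listed for 3332 epithelium loops and 2065 ES cell loops, and anchors of 5 kb for 1467 and 3350. The midpoint of a wide anchor is placed less finely than that of a narrow anchor, and the part of width in the shared shares was not tested beyond the subsets given here and in the closing paragraphs.

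**Figure D1:**
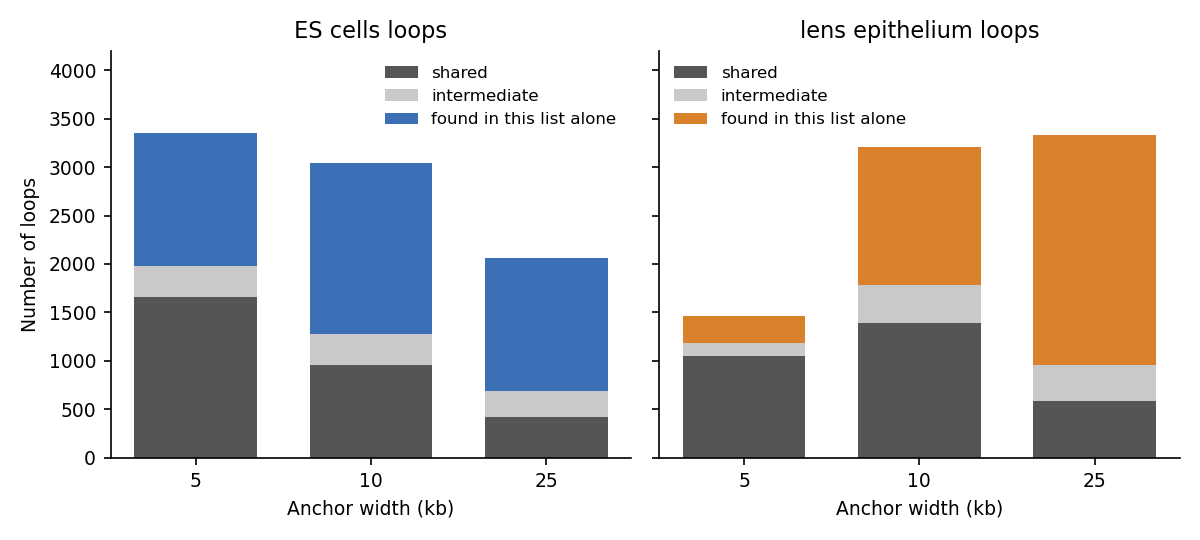
Number of loops (y axis) by anchor width in kb (x axis) in the ES cell list (left) and the lens epithelium list (right), split into shared, intermediate and found in that list alone. The part found in lens epithelium alone is largest at 25 kb anchors, with 2373 of 3332 loops, and smallest at 5 kb anchors, with 279 of 1467.

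Sharing also varied along the genome. On the 19 autosomes the shared share of ES cell loops ran from 29.9% on chromosome 5 to 41.2% on chromosome 15, and that of lens epithelium loops from 31.0% on chromosome 14 to 45.0% on chromosome 11. The X chromosome held 248 ES cell loops, of which 20.6% were shared, and 165 lens epithelium loops, of which 31.5% were shared. All 6 loops listed on the Y chromosome were in ES cells, a male line. Without the sex of the lens donors, sex and cell type cannot be told apart on the X and Y chromosomes.

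The lens fiber list was not used to form the classes. Of the epithelium-only loops, 40.9% (39.4 to 42.5) had a lens fiber loop within 10 kb at both midpoints, but only 6.69% (6.00 to 7.46) of the ES-only loops did. Shared loops were found in lens fiber most often, in 77.1% (75.6 to 78.6) of the lens epithelium loops. The fiber list is also from newborn CD-1 lenses, so tissue and strain move with this difference.

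The longest ES-only loops set that class apart in size. Its median size was 220 kb (210 to 230), close to the 205 kb (200 to 220) of the shared loops, while epithelium-only loops had a median of 300 kb (280 to 300). Above 3 Mb lay 6.58% (5.90 to 7.35) of the ES-only loops, 1.59% (1.25 to 2.03) of the epithelium-only loops and 0.561% of the shared loops of ES cells. Of the 315 ES cell loops above 3 Mb, 297 were ES-only and 17 shared. Among loops below 100 kb, 62.2% of those in ES cells were ES-only, against 44.3% that were epithelium-only in lens epithelium. At 10 kb anchors alone the order of the medians turned, with 190 kb for ES-only and 170 kb for epithelium-only loops.

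**Figure D2:**
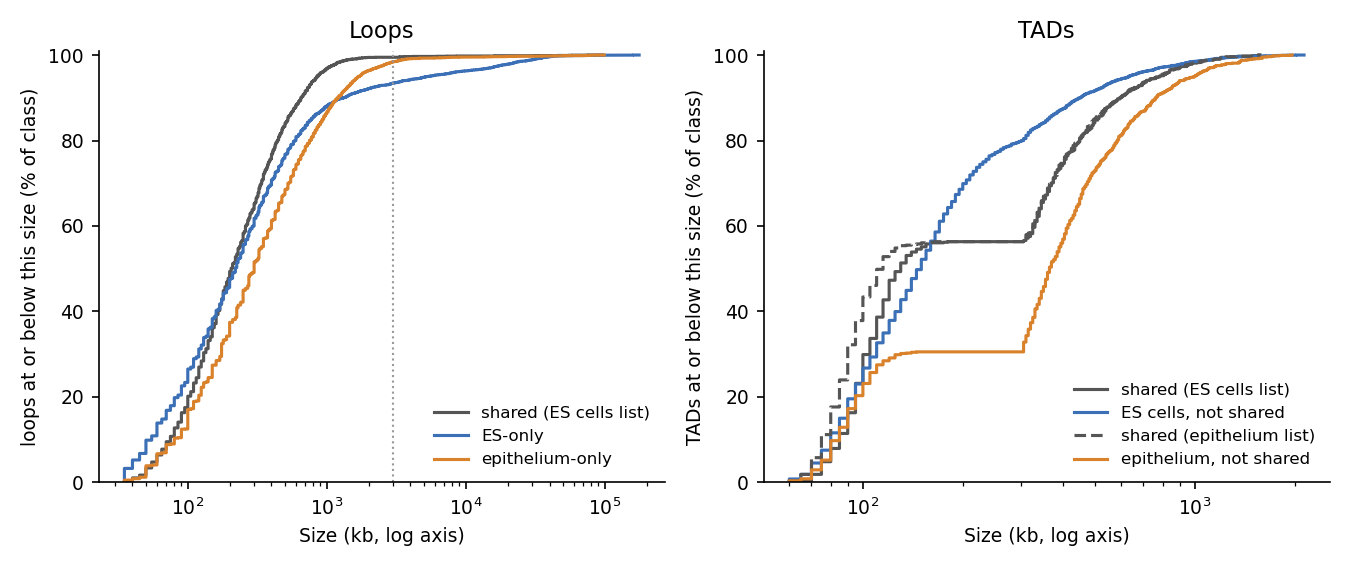
Cumulative share of loops (left) and TADs (right) of each class by size in kb on a log axis, with a dotted line at 3 Mb for loops. The ES-only curve stays below the other loop classes beyond 3 Mb, and the epithelium TADs have a flat stretch between 200 and 300 kb, where none was listed.

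Loops found in 1 list often had an anchor near an anchor of the other list. Of the ES-only loops, 63.0% (61.6 to 64.4) had 1 or 2 anchor midpoints within 10 kb of an anchor of a lens epithelium loop, and 12.5% had both. Among epithelium-only loops 60.9% (59.4 to 62.4) had 1 or 2 and 13.9% had both. The rest, 1669 ES-only and 1593 epithelium-only loops, used anchors that the other list lacked. For ES-only loops above 3 Mb, 66 of 297 had both anchors in the lens epithelium list, but joined to other partners. By the rule, such partners may lie only slightly more than 25 kb apart. How often other positions lie as near to an anchor was not measured.

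Binding of CTCF, measured in the lens alone, moved with sharing. A lens epithelium CTCF peak lay within the 25 kb centred on both midpoints in 35.0% (33.4 to 36.8) of the shared epithelium loops, 17.6% (16.4 to 18.8) of the epithelium-only loops and 18.1% (17.0 to 19.3) of the ES-only loops. With the longer lens fiber list of 23868 peaks, against 16433 in epithelium, the shares were 70.5%, 42.2% and 35.2%. CTCF in ES cells was not analysed here, so the value for ES-only loops describes where lens CTCF lies and not binding in ES cells. Each peak list came from 1 sample.

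Shared loops stood out from their surroundings less in ES cells than in lens epithelium. The measure was the observed count of contacts in the loop divided by the count expected from the donut of bins around it, and it was set side by side in pairs of loops, each loop used once. In 1 pair an expected count of about 0 gave no ratio. Over the 3031 others, the median log2 ratio of ES cells over lens epithelium was -0.10 (-0.13 to -0.08). The ratio depends on anchor width. It had a median of 0.30 in 989 pairs with the narrower anchor in ES cells and of -0.80 in 293 pairs with the wider anchor there. In the 1749 pairs of equal width the median was -0.22 (-0.24 to -0.21), and 24.9% of these pairs were higher in ES cells. The medians were -0.22, -0.25 and -0.19 at 5, 10 and 25 kb, and lay below 0 on all 20 chromosomes that had such pairs.

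Observed counts differed at these loops. At equal width the median observed count was 60 contacts in ES cells and 34 in lens epithelium, and the median ratio of observed to expected contacts was 3.37 in ES cells and 4.04 in lens epithelium. The authors describe the total contacts of the cell types as similar. They also report that contacts between chromosomes made up a much smaller share in ES cells than in lens epithelium. Loops lie within chromosomes, so similar totals do not mean equal depth for loops. The part of the observed counts and of map depth in the lower ES cell ratios was not tested. The difference was smaller for longer loops, with a median log2 ratio of -0.30 (-0.35 to -0.25) below 100 kb, -0.23 from 100 to 300 kb and -0.18 (-0.21 to -0.16) at 300 kb or more. It varied little with lens epithelium CTCF, at -0.24 with a peak at both anchors and -0.19 (-0.25 to -0.16) with none. Few pairs differed strongly, with 39 of 1749 over 1.5-fold higher in ES cells and 228 over 1.5-fold higher in lens epithelium.

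**Figure D3:**
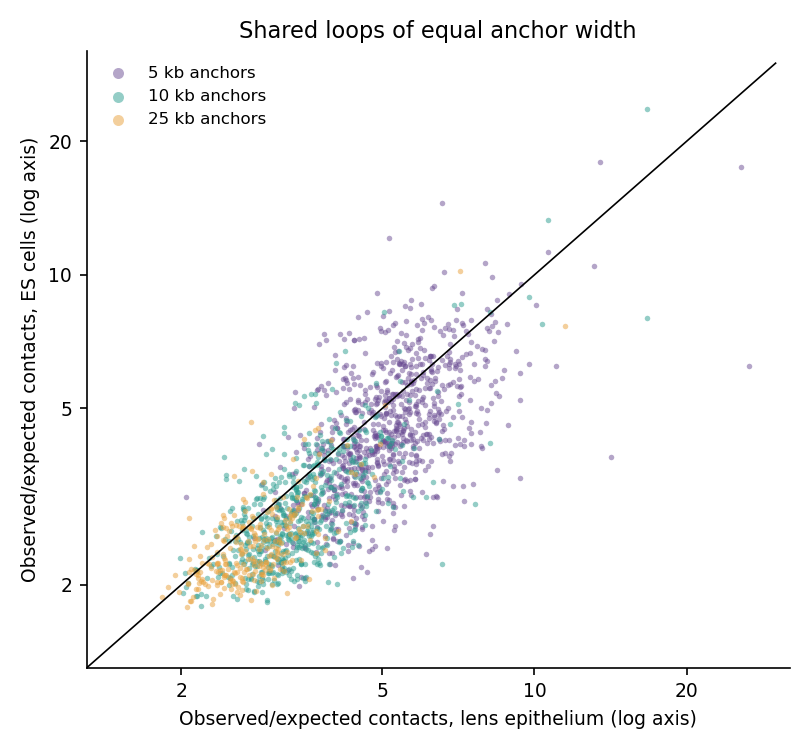
Observed over expected contacts in ES cells (y axis) and lens epithelium (x axis) for shared loops of equal anchor width, both on log axes, colored by anchor width, with the line of equal values. Of 1749 pairs 1735 are drawn, 14 with a ratio above 30 lie outside the axes, and most points lie below the line.

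Single pairs with at least 30 contacts in both lists show the range, with intervals that count the observed contacts only. The strongest shift toward lens epithelium was at chr6:51210001-51215000 and chr6:51580001-51585000, a 370 kb loop with no gene start at either anchor and lens CTCF at both. It had 37 contacts against 9.52 expected in ES cells and 38 against 2.68 in lens epithelium, a log2 ratio of -1.87 (-2.56 to -1.18). A 70 kb loop between the olfactory receptor genes Olfr322 and Olfr317 followed at -1.56 (-2.11 to -1.01), with no lens CTCF peak at either anchor. Other genes at the 8 largest shifts toward lens epithelium were Aadacl4, Lrrc8b, a subunit of volume-regulated anion channels, Pfkfb3, a regulator of glycolysis, and, on 1 loop, the Polycomb gene Cbx6 with Npcd at one anchor and Apobec3 at the other.

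Toward ES cells, the largest ratio among pairs with at least 1 expected contact lay at Eif4b, a translation initiation factor gene. This 80 kb loop had 172 contacts against 11.8 expected in ES cells and 51 against 7.78 in lens epithelium, a log2 ratio of 1.15 (0.69 to 1.63). The 70 kb loop between Arl4d, a small GTPase gene, and Dhx8, a splicing helicase gene, had a log2 ratio of 0.82 (0.26 to 1.42), and that at Cd244a had 0.63 (0.15 to 1.10). Larger ratios still, of 2.53 and 1.29, came from pairs of 3615 kb and 54870 kb on chromosomes 17 and 11. Their expected counts were below 1 in both lists, so that the ratio rests on a very small denominator. The first had 909 contacts against 0.278 expected in ES cells and 299 against 0.529 in lens epithelium.

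Genes were placed at an anchor when their start lay within 10 kb of its midpoint, or either end for genes whose strand was not given. Of 21887 protein-coding genes, 3080 (14.1%) lay at an anchor of an ES-only loop and 2344 (10.7%) at an anchor of an epithelium-only loop, 568 of them at both. With the start required inside the anchor as listed, whose widths differ between the lists, the 3080 genes became 2122 and the 2344 became 2097, so the excess at ES-only loops depends on this window. Genes with ES-only anchors and neither an epithelium-only nor a shared anchor numbered 2003. Those with epithelium-only anchors alone, by the same rule, numbered 1476. Intermediate loops were not excluded from either group, so its genes could still have a loop in the other list. Lhx5, for example, had 1 intermediate loop in lens epithelium. Gene starts lay at both anchors of 22.3% (21.1 to 23.5) of the ES-only loops, against 9.05% (8.20 to 9.97) of the epithelium-only loops and 10.7% of the shared loops.

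Genes of transcription factors that pattern the embryo held the highest shares of ES-only anchors among the 10 gene lists examined. One list held 97 genes outside the Hox clusters, chosen by name, mostly homeobox and T-box genes with the paired box (Pax) and GATA genes, and without some homeobox genes such as Lmx1b, Hmx1 and Uncx. Of these 97, 75 (77.3%, 68.0 to 84.5) lay at an ES-only anchor, against 14.1% of all genes, and 18 (18.6%, 12.1 to 27.4) at an epithelium-only anchor, against 10.7%. Of the 97, 47 had ES-only anchors alone, against 9.15% of all genes, and 0 had epithelium-only anchors alone, against 6.74%. Neighboring genes share anchors, so the 97 genes were also counted as 86 separate loci, of which 67 had an ES-only and 18 an epithelium-only anchor. Of 39 Hox genes, which order the body axis, 30 lay at ES-only and 11 at epithelium-only anchors, in 4 clusters, all 4 of which had an ES-only loop and 3 an epithelium-only loop.

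**Figure D4:**
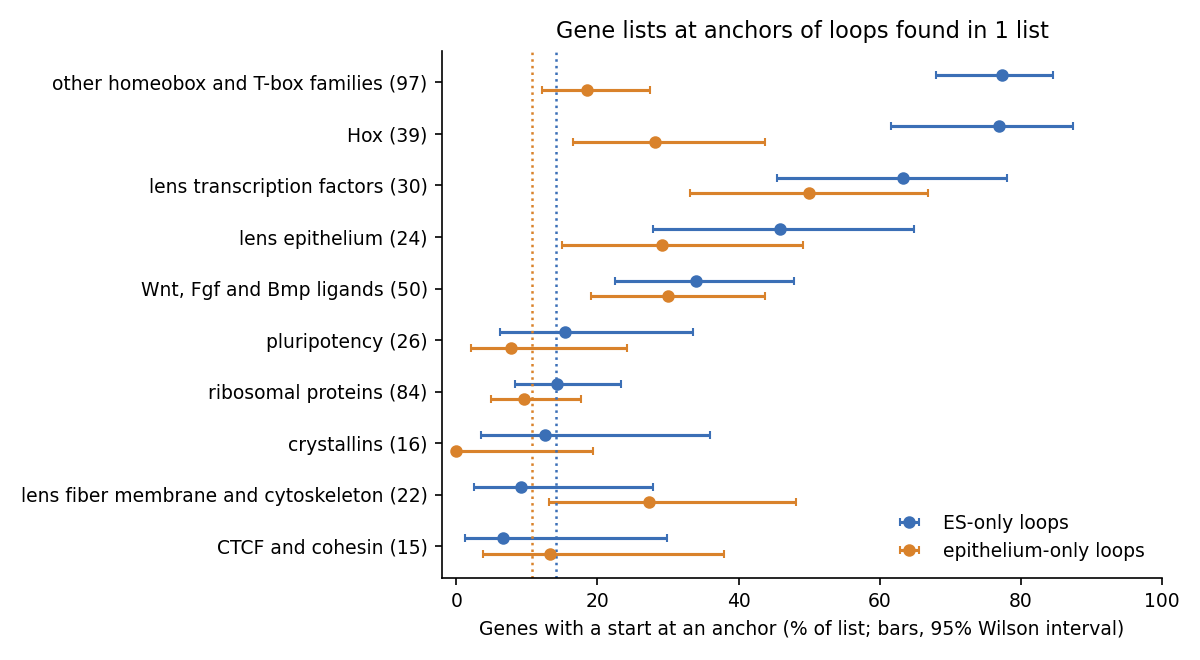
Share of the genes of each list, in percent, with a start at an anchor of an ES-only loop (blue) or an epithelium-only loop (orange), list sizes in parentheses, bars for the 95% Wilson interval, and dotted lines for all protein-coding genes, at 14.1% and 10.7%. The list named for homeobox and T-box families, which also holds Pax and GATA genes, and the Hox list lie at 77.3% and 76.9% for ES-only loops, and the pluripotency list at 15.4% lies near the line.

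Most other lists stood nearer to all genes or were raised in both classes. Among 30 transcription factors of the lens, 19 (63.3%, 45.5 to 78.1) had an ES-only and 15 (33.2 to 66.8%) an epithelium-only anchor, 8 of them both. Some of these, such as Pax6, Six3 and Six5, belong to the list above as well. Of 24 lens epithelium genes 11 had ES-only and 7 epithelium-only anchors, and of 50 Wnt, Fgf and Bmp ligands 17 and 15 did. Pluripotency genes were close to the background, with 4 of 26 (15.4%) at ES-only anchors, 1 when the start had to lie inside the listed anchor, and 2 at epithelium-only anchors. Ribosomal protein genes, which all cells express, had 12 of 84 (14.3%) and 8 (9.52%). The 22 lens fiber membrane and cytoskeleton genes were raised at epithelium-only anchors alone. Of these, 6 (27.3%, 13.2 to 48.2) lay there, against 10.7% of all genes, and 2 (9.09%) at ES-only anchors, against 14.1%. For 16 crystallins the counts were 2 and 0, and for 15 CTCF and cohesin genes 1 and 2.

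The 10 genes with most ES-only loops were all homeobox genes. Lmx1b had 12 loops in ES cells, all ES-only, 9 of them above 3 Mb, and none in lens epithelium. Its loop with second most contacts ran 37900 kb to Dlx1 and Dlx2, with 58 contacts against 4.11 expected, and another ran 41050 kb to Hoxd10 and Hoxd11, with 45 against 2.84. Dlx1 had 10 loops in ES cells and none in lens epithelium, and reached Lrp2, Gad1 and Sp5 as well as the Hoxd cluster. Hmx1, a homeobox gene of craniofacial development, had 11 in ES cells and 1 in lens epithelium, a loop of 110 kb that lens fiber also had. In order, Uncx followed with 10 ES-only loops, and Barhl2, Barx1, Hoxd10, Lhx5, Nkx2-3 and Pitx1 with 9 each. Of these, Barhl2, a retinal differentiation factor, had most loops in lens epithelium, with 4 against 11 in ES cells, of which 2 in each list were shared.

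The largest number of epithelium-only loops at a gene was 6, against 12 ES-only loops at Lmx1b. Myc, the cell growth regulator, had these 6 loops, of 350 to 1750 kb, out of 8 in lens epithelium, and 4 loops in ES cells. The one with most contacts had 128 contacts against 54.9 expected. Zfp608, a zinc finger gene, had none in ES cells, against 5 in each of the lens lists. With 4 epithelium-only loops each followed Cdh11, a cadherin, Dcdc5, Epb41l4a, Eri1, an exonuclease of histone mRNA, Flrt2, Irf2bp2, Lmnb1, which encodes lamin B1, and Maf, a transcription factor of lens fiber differentiation. Of these 8 only Eri1 had any loop in ES cells, with 2. Lens fiber listed 3 to 5 loops at each of them except Flrt2, which had 1. Flrt2 had the longest of these loops, of 2125 kb, with 44 contacts against 16.0 expected. At the Maf start, the 4 loops spanned 425 to 950 kb, the one of 425 kb with 146 contacts against 48.9 expected.

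**Figure D5:**
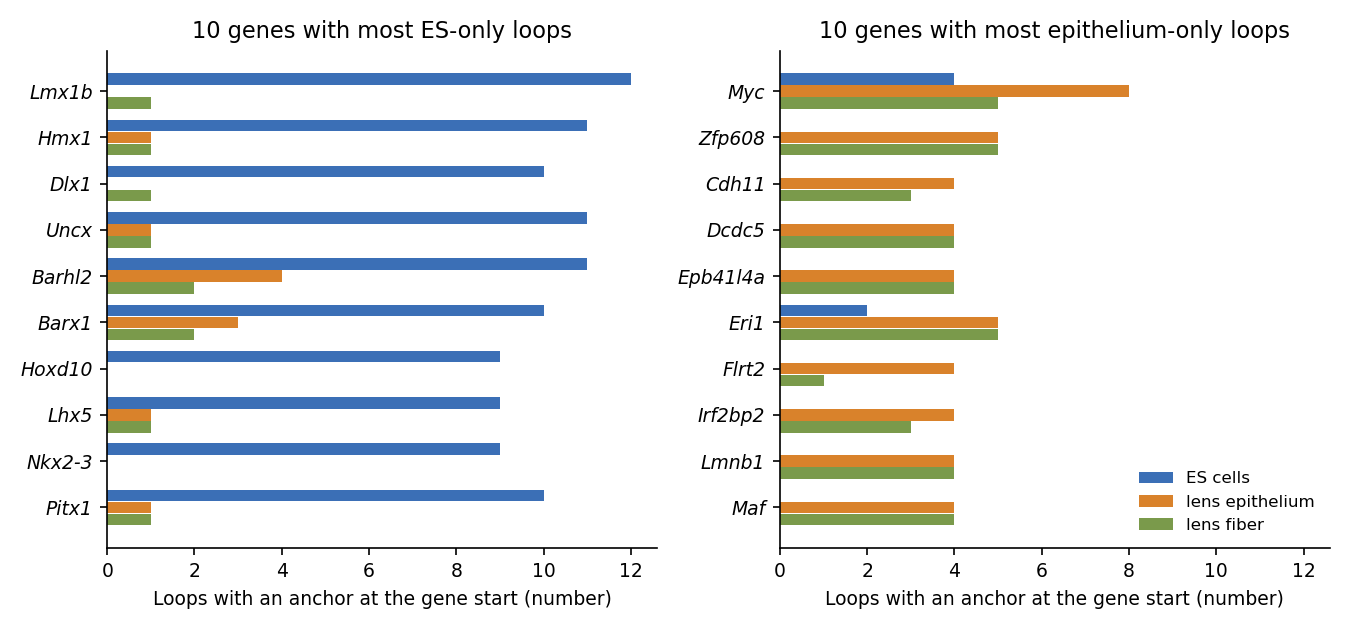
Number of loops with an anchor at the start of each gene (x axis) in the ES cell, epithelium and fiber lists, for the 10 genes with most ES-only loops (left) and the 10 with most epithelium-only loops (right). On the left ES cells hold 9 to 12 loops per gene and lens epithelium 0 to 4, and on the right ES cells have loops at Myc and Eri1 alone, with 4 and 2.

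Loops that joined genes of these 2 lists to each other were nearly all ES-only. A gene of the Hox list or of the list of 97 lay at both anchors of 54 ES-only loops, of 0 epithelium-only loops and of 2 shared loops, which joined Irx1 to Irx2 and Irx3 to Irx5. At 1 anchor there was such a gene in 218 ES-only and 29 epithelium-only loops. The 54 loops had a median size of 1810 kb, and 25 (46.3%) were above 3 Mb, while the 29 epithelium-only loops had a median of 400 kb and the longest was 1225 kb. None of the 54 was found in lens fiber. Lens fiber CTCF lay at both anchors of 8 of the 54 (14.8%), against 35.8% of the 4239 ES-only loops without such a gene. It lay at neither anchor about equally often, in 11 of the 54 (20.4%) and in 20.5% of the 4239. The 4239 were shorter, with a median of 210 kb, and the part of size was not tested. Of the 297 ES-only loops above 3 Mb, 105 (35.4%) had such a gene at 1 or both anchors and 159 (53.5%) had any gene start at both. Of the 65 epithelium-only loops above 3 Mb, 0 had such a gene and 1 had a gene start at both anchors.

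Loops of this kind below 1 Mb joined genes within a cluster or nearby. Six3 and Six2, homeobox genes of eye and kidney, were joined over 65 kb between chr17:85620001-85625000 and chr17:85685001-85690000, with 122 contacts against 13.2 expected. Nkx2-1, a factor of lung, thyroid and forebrain, met Pax9, a factor of pharyngeal pouch and tooth, over 155 kb on chromosome 12, with 90 against 7.87. Between Tbx2 and Tbx4 there were 124 contacts against 27.8. Over 765 kb, Tbx3 met Lhx5 with 40 against 1.90. Within the Hox clusters the loops included Hoxc11 to Hoxc5 and Hoxc6 over 60 kb, with 197 contacts against 83.7, and Hoxb6, Hoxb7 and Hoxb8 to Hoxb2 and Hoxb3 over 65 kb, with 73 against 22.6.

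Long loops of this kind crossed many megabases within a chromosome. Hoxa10 and Hoxa11 met Vax2, a homeobox gene of the ventral retina, over 31475 kb, between chr6:52225001-52250000 and chr6:83700001-83725000, with 79 contacts against 7.88 expected. Lhx2, required for early eye formation, met Hoxd10 and Hoxd11 over 36350 kb with 31 against 3.07. Pax6, the central regulator of eye and lens development, met the same Hoxd genes over 31000 kb with 27 against 3.42. On chromosome 5, Barhl2 met Lhx5 over 13975 kb with 26 against 1.01. These counts are small, and many of the expected counts lie near 1, so that the ratios are less certain than those of short loops.

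Genes of the lens itself stood on both sides. The other anchors of the epithelium-only loops described next held no gene start. Jag1, a Notch ligand, had none in ES cells and 3 epithelium loops between 200 and 825 kb in size, the shortest with 132 contacts against 54.4. Bfsp1, a beaded filament protein of lens fibers, had an epithelium-only loop of 120 kb with 39 against 13.2. Tfap2a, a factor of early lens and surface ectoderm, had instead 7 ES-only loops, 5 of them above 3 Mb, and 1 epithelium-only loop of 1290 kb. At the crystallin gene Cryba2 there were 6 ES-only loops and none in lens epithelium, and the other anchors included Ihh, Cdk5r2, Pax3 and Lhx4.

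Pluripotency genes lay at ES-only anchors about as often as all genes, with 4 of 26 (15.4%) against 14.1%. Nanog, a core pluripotency factor, had 1 ES-only loop of 50 kb with 49 contacts against 14.3 expected, and Sox2, which acts in pluripotency and in lens induction, had 1 of 110 kb with 50 against 8.04. Dppa5a had 1 of 35 kb. Tbx3, which is also a T-box gene, had 8. The listed anchors placed at Nanog and Dppa5a, chr6:122715001-122720000 and chr9:78355001-78360000, lay outside the genes themselves. Lefty2, on the same list, had 1 epithelium-only loop, of 70 kb, and none in ES cells. Of the cohesin regulators, Wapl, the release factor, had 1 ES-only loop of 50 kb, Pds5a had 1 epithelium-only loop of 300 kb, and Stag1, a cohesin subunit, had 3 epithelium-only loops.

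TADs were matched with a wider tolerance than loops. With both ends within 25 kb, 742 TADs were shared, which was 20.6% (19.3 to 21.9) of the ES cell list and 41.3% (39.1 to 43.6) of the lens epithelium list. Size moved with this. Shared TADs had a median of 130 kb in ES cells and 115 kb in lens epithelium, unshared ones of 150 kb (145 to 150) in ES cells and 365 kb (355 to 385) in lens epithelium. Below 200 kb, 417 of 2379 ES cell TADs (17.5%) and 417 of 738 lens epithelium TADs (56.5%) were shared. Between 200 and 300 kb lay 320 ES cell TADs, 0 of them shared, and 0 lens epithelium TADs. A match for these 320 thus had to come from outside that range. The part of TAD calling in this gap was not tested. At 300 to 500 kb the shares were 37.9% in ES cells and 32.3% in lens epithelium.

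Most unshared lens epithelium TADs kept an end. Of these 1054, 608 (57.7%) had 1 end and 151 (14.3%) had both ends within 25 kb of ends of ES cell TADs, those of the 151 in other pairings. Of 2862 unshared ES cell TADs, 1025 (35.8%) kept 1 end and 89 (3.11%) both. Of the unshared ES cell TADs 17.4% lay inside a lens epithelium TAD, and of the unshared lens epithelium TADs 35.3% held an ES cell TAD. In lens fiber, 62.5% (59.6 to 65.4) of the unshared lens epithelium TADs and 571 of the 2862 unshared ES cell TADs (18.5 to 21.5%) were found.

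Loops at TAD corners were listed more often for shared TADs. A loop of the same list joined the ends of the TAD within 25 kb in 66.0% (62.6 to 69.4) of the shared and 43.7% (41.9 to 45.5) of the unshared ES cell TADs, and in 74.0% (70.7 to 77.0) and 54.7% (51.7 to 57.7) of those in lens epithelium. The difference was present at both sizes in ES cells, with 75.1% against 47.8% below 200 kb and 54.5% against 34.7% at 200 kb or more. Among the 742 shared TADs, 429 had such a loop in both lists and 132 in neither, while 61 had one only in the ES cell list and 120 only in the epithelium list.

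Hox genes lay in TADs more often than the genes of any other of the 10 lists. The middle of 34 of 39 Hox genes lay in a TAD in ES cells and of 24 in lens epithelium, against 34.1% and 17.6% of all genes. The 39 genes lie in 4 clusters and neighbors share TADs, so these are not 39 separate observations. In a shared TAD lay 0 of the 39 in ES cells, against 6.78% of all genes, and 2 (5.13%) in lens epithelium, against 6.20%. Hoxb6, Hoxb7, Hoxb8 and Hoxb9 lay in an 85 kb TAD in ES cells, chr11:96270001-96355000, with a loop joining its ends. In lens epithelium they lay in a 480 kb TAD, chr11:96265001-96745000, with nearly the same start and no such loop. At the Maf gene the order was the reverse, with a 2020 kb TAD in ES cells and a 735 kb TAD in lens epithelium, chr8:115705001-116440000, which began at the gene and had a loop joining its ends. Lmx1b, Six3, Sox2 and Nanog lay in TADs of 170, 80, 125 and 150 kb in ES cells, each with a loop joining its ends, and in none in lens epithelium.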

How the data were processed

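Hi-C loops and TADs were compared between 2 merged lists, each from 2 replicates grouped by the GEO labels. The authors aligned reads with BWA to mm10 and made contact maps with Juicer, per the labels, and called loops with HiCCUPS (juicer_tools 2.13.06 in the file headers) and TADs with Arrowhead. For each loop, the authors deposited an observed count of contacts in the merged map, the contacts expected from bins around it, and q-values (FDR). The authors called CTCF peaks with MACS2 and deposited a fold enrichment and a −log10 q-value for each. Coordinates are counted from 1.

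Figures were drawn in matplotlib 3.10.9, and lists were matched in pandas 2.3.3, scipy 1.17.1 and numpy 2.4.6 under Python 3.11.15, by code tested on simulated lists. Loops were matched by anchor midpoints within 10 kb, and TADs by ends within 25 kb. Gene positions came from RefSeq on GRCm38.p6, the assembly also called mm10, and 17492 of 21887 protein-coding genes had a listed start with strand. The depth of the Hi-C maps was not used here. The observed contacts of a loop give the count behind its ratio and do not measure the depth of the map. Genes named are up to 6 per list by contacts at ES-only or epithelium-only loops, the 10 genes with most loops of each class (ties in alphabetical order), and those at the 8 largest changes of observed over expected contacts in each direction among pairs of equal width with at least 30 contacts. Genes outside this rule (partners of these loops, loops between 2 listed genes) and the TADs shown were chosen after their values were seen. Some genes and sequences that the rule names are not reported here. The comparison and the gene lists were chosen with earlier results of these data known. Alternatives for tolerance, width, FDR, size, expected value, gene placement and CTCF list are given in the closing section.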

Additional observations from a re-analysis of the deposited data

How the results depend on the processing

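No paired analysis was possible because each list holds both replicates merged, and for the same reason no replicate could be left out. In 51 of 98 comparisons with an alternative setting the value stayed within its interval, or within 1.5 times for a count. The other 47 moved. Only the log2 ratio of shared loops could change sign, and it did not. The order of the ES-only and epithelium-only median sizes did turn with 10 kb anchors, as given below. The shared share of ES cell loops was 23.8% at a tolerance of 5 kb, 46.7% at 25 kb, 24.7% where both listed anchors had to overlap, 19.97% and 13.3% with 10 and 25 kb anchors in both lists, 30.2% at an FDR below 0.01 and 37.0% up to 3 Mb. For lens epithelium loops the same settings gave 25.1%, 49.0%, 26.1%, 18.996%, 8.22% and 32.9%, and no move up to 3 Mb. TADs were shared in 11.1% of ES cells and 22.3% of lens epithelium at 10 kb, in 26.3% and 52.4% at 50 kb, in 26.5% and 30.7% at 200 kb or more, and in 44.0% of lens epithelium by reciprocal overlap. The median log2 ratio of shared loops was -0.22 at equal anchor width, -0.23 with identical anchors, -0.14 at 5 kb, -0.0741 with the larger of the horizontal and vertical expected counts, -0.0717 at 30 or more contacts and -0.0505 with the lower left expected count. Median sizes with 10 kb anchors were 190 kb for ES-only and 170 kb for epithelium-only loops, and 310 kb for the latter with an absent limit of 50 kb. At 25 kb, 77.8% of ES-only and 75.5% of epithelium-only loops kept an anchor. By gene body, 4079 genes lay at epithelium-only loops. With anchors as listed, lens epithelium CTCF lay at both anchors of 19.2% of shared, 13.7% of epithelium-only and 10.2% of ES-only loops, while in the window of 25 kb lens fiber CTCF gave 70.5%, 42.2% and 35.2%. Loops joined TAD ends within 10 kb in 27.6% of shared and 17.8% of unshared ES cell TADs, and in 36.4% and 21.3% in lens epithelium. The cause of each move was not tested. Loops with under 1 expected contact, left out after the data were seen, moved neither shared share, neither median size and neither gene count beyond these limits. Genes of the list of 97 at ES-only anchors numbered 52 to 75. The 52 came when genes without a listed promoter were left out, which also shortened the list, so it is not a share of 97. This setting was also chosen after the data were seen. Pluripotency genes at ES-only anchors numbered 1 to 4.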
